A study of Mus musculus with 6 samples.

Results

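The genes described here are 9 genes of megakaryocytes and platelets, out of 24062 genes counted in each library: *Pf4*, *Ppbp*, *Gp1bb*, *Gp5*, *Gp9*, *Gp6*, *Itgb3*, *Treml1* and *Nfe2*. They were chosen by name, as platelet glycoproteins, alpha granule genes and the transcription factor *Nfe2*, and each of the 9 symbols was found once in every library. RNA was sequenced from 2 fractions of hematopoietic progenitor and stem cells of the aorta-gonad-mesonephros region (AGM) of mouse embryos at embryonic day 10.5, with 3 libraries per fraction. The embryos were of the C57BL/6JOlaHsd strain, and all of them carried the *Gata2Venus* reporter, in which the fluorescent protein Venus is made from 1 *Gata2* allele together with *Gata2* itself (*G2V/+*). Cells of both fractions were sorted as CD31+ckit+, and the fractions differed in Venus brightness, intermediate in Vmed (labelled G2Vi) and high in Vhigh (labelled G2Vh). The study describes its RNA sequencing as independent experiments, 3 in number, while how many embryos contributed to a library is not given in the sources used here. The p-values measure the spread between these libraries.

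Megakaryocytes are the cells that shed platelets, in the bone marrow of the adult and in the yolk sac and liver of the embryo. Their identity is set by the transcription factors GATA1, FLI1, RUNX1 and NF-E2, the last being a dimer of the product of *Nfe2* with a small Maf protein, which is needed for late maturation and platelet release. Platelets attach to injured vessels through the GPIb-IX-V complex, which binds von Willebrand factor, respond to collagen through GPVI, and aggregate through the integrin of the *Itga2b* and *Itgb3* products, which binds fibrinogen. Their alpha granules release the chemokines made by *Pf4* and *Ppbp*. Several of these genes are also read in other cells: *Pf4* in some embryonic macrophages, *Itgb3* in endothelium and mast cells, and *Nfe2* in erythroid cells and early progenitors.

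The sequences upstream of 3 members are shown because *Pf4*, *Gp9* and *Gp6* were among the genes whose libraries did not overlap between the fractions, and because members of this class are known to be read from short promoters with GATA and ETS sites. Each run holds the 250 bases before the start of the gene in RefSeq (GRCm38.p6), 5′ to 3′ on the strand of the gene, and capitals mark matches to the words searched. *Itgb3* and *Nfe2* had no entry in the promoter table used.
*Pf4* (chr5:90772185-90772434, plus strand): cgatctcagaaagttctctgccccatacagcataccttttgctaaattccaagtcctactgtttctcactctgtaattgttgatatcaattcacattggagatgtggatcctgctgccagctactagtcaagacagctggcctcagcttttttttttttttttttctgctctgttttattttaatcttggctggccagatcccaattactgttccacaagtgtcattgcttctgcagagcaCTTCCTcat
*Gp9* (chr6:87777820-87778069, plus strand): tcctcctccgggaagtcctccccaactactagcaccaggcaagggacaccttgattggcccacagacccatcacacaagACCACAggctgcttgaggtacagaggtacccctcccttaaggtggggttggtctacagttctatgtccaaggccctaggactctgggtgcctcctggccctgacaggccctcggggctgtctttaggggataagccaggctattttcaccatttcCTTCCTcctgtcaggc
*Gp6* (chr7:4397745-4397994, minus strand): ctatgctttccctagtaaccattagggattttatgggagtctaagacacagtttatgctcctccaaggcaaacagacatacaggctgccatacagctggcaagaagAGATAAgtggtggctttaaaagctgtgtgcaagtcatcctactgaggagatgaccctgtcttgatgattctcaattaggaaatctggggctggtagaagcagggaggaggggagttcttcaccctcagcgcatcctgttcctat
The words searched, on both strands, were AGATAA or AGATAG or TGATAA or TGATAG for GATA factors, AGGAAG or CGGAAG for ETS factors, TGTGGT or TGCGGT for RUNX factors and TGAGTCA for NF-E2. None of these words shares a letter with a match to another in the 7 promoters searched. The *Pf4* promoter held 1 ETS word, which began 9 bases before the start, and the *Gp9* promoter held 1 ETS word 16 bases and 1 RUNX word 171 bases before the start. The *Gp6* promoter held 1 GATA word 144 bases before the start. Of the others, *Gp5* held 3 GATA words and 1 ETS word, *Gp1bb* 1 of each, and *Ppbp* and *Treml1* none of the words. *Treml1* also did not overlap between the fractions, so the promoters shown leave out a separated gene that held none. Among 32851 promoters of this length, 26.5% held a GATA word, 39.2% an ETS word, 18.6% a RUNX word and 4.5% the NF-E2 word. A match is a run of letters and not a binding site.

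Reads assigned to genes numbered between 8296831 and 12035206 per library, and the number of genes detected ran from 10427 to 18460, both extremes being Vhigh libraries (replicates 1 and 2). Expression is given as CPM, a gene's counts scaled by the library's total on genes, and a count of 3, the smallest taken to be shown, corresponded to between 0.249 and 0.362 CPM. In all 15 pairs of libraries the counts differed beyond counting noise, with a chi-square per gene of 107 or more, so all 6 were kept as separate libraries. The sorting markers were read in every library, with *Kit* at 64.1, 208 and 59.1 CPM in Vmed replicates 1, 2 and 3 and 255, 490 and 521 CPM in Vhigh. *Pecam1*, which encodes CD31, was at 118, 569 and 476 CPM in Vmed and 160, 224 and 436 CPM in Vhigh. *Gata2* was at 50.3, 29.4 and 68.3 CPM in Vmed and 39.2, 82.5 and 142 CPM in Vhigh.

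Most of the platelet genes were read at lower levels in the Vhigh libraries, and *Nfe2* was read at higher levels there. Of the 9 genes, 4 had every Vhigh library below every Vmed library (*Pf4*, *Gp9*, *Gp6* and *Treml1*), an arrangement seen in 4.71% of all genes tested, and *Nfe2* had every Vhigh library above every Vmed library, seen in 4.15% of all genes. Between libraries with the same replicate number, 5 of the 9 were lower in Vhigh in 3 of 3 pairs (the same 4 and *Ppbp*; 15.4% of all genes) and *Nfe2* was higher in 3 of 3 (15.2%). None of these differences passed the test across all genes: edgeR's quasi-likelihood test called 0 of the 9 genes and 0 of 12688 genes tested (0%) at an adjusted p under 0.05, with an adjusted p of 0.9998 for each of the 8 that could be tested. At an unadjusted p under 0.05, *Pf4* and *Gp6* were lower in Vhigh, where 1.17% of all genes were, and *Nfe2* was higher, where 0.867% were. *Gp5* did not pass the filter on low counts. The median difference in mean log2 CPM over the 9 genes, Vhigh minus Vmed, was -2.01, beside -0.09 over all genes tested. In bulk RNA, fewer cells of a type and less RNA per cell cannot be told apart.

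**Figure D1:**
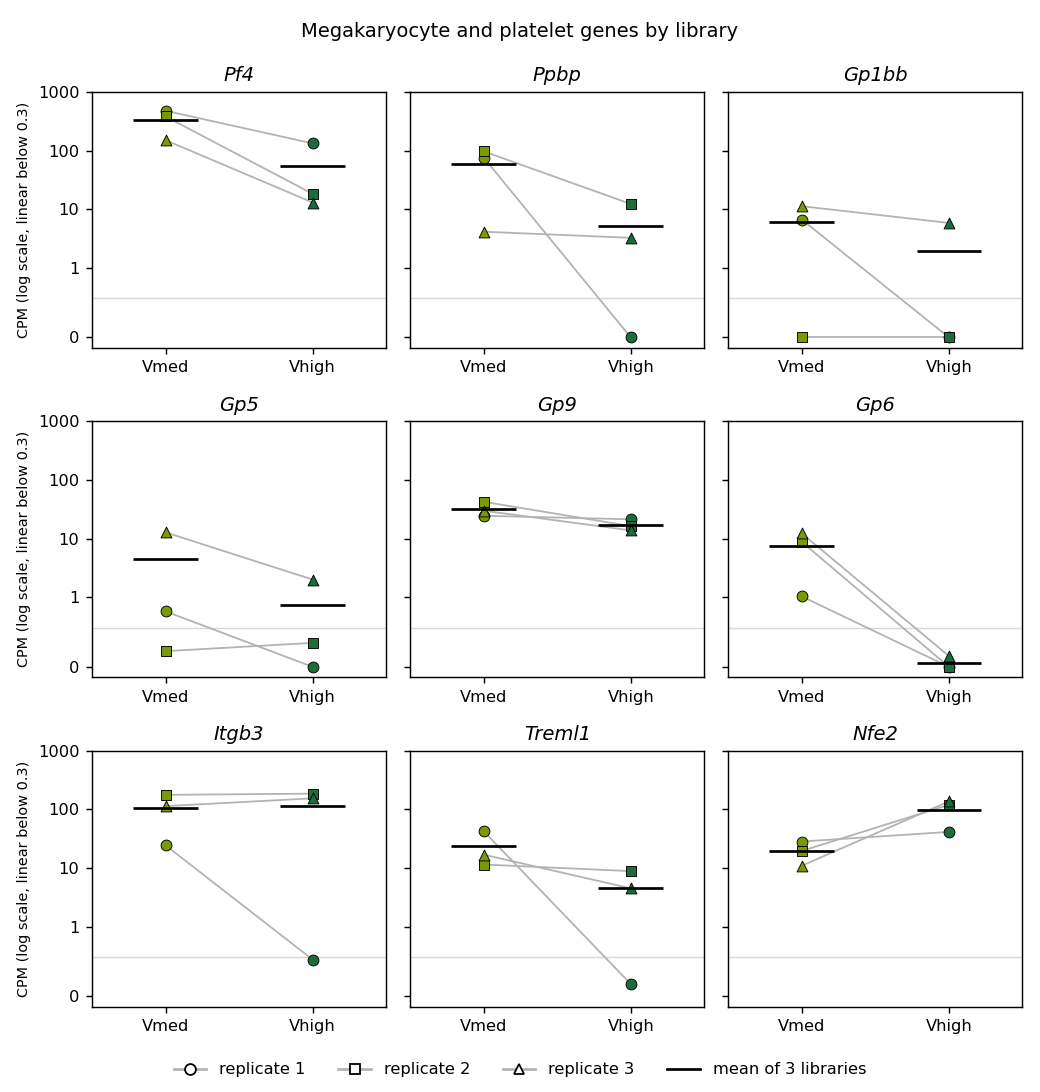
CPM of the 9 genes (vertical axis, log scale, linear below 0.3 CPM) in the 3 Vmed and 3 Vhigh libraries, with grey lines joining libraries of the same replicate number and black bars at the means. For *Pf4*, *Gp9*, *Gp6* and *Treml1* all Vhigh points lie below all Vmed points, *Nfe2* lies at 10.9 to 28.3 CPM in Vmed and at 41.3 to 137 CPM in Vhigh, and *Itgb3* in Vhigh replicate 1 lies at 0.281 CPM. Points at 0 in Vhigh lie on each other for *Gp1bb* and *Gp6*.

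*Pf4* (ENSMUSG00000029373.7, chromosome 5, 90772435 to 90773383, GRCm38) encodes platelet factor 4, an abundant chemokine of alpha granules. It was read at 477, 381 and 150 CPM in Vmed replicates 1, 2 and 3, and at 132, 18.2 and 12.96 CPM in Vhigh replicates 1, 2 and 3. The lowest Vmed library stood above the highest Vhigh library by a small margin, and replicate 1 was the highest library of both fractions. The means were 336 ± 168 CPM in Vmed and 54.5 ± 67.5 CPM in Vhigh (SD, n = 3 each), and the log2 fold change of Vhigh over Vmed was -2.56 (SE 0.88, adjusted p = 0.9998 and 0.020 before adjustment in edgeR's quasi-likelihood test). An exact two-sided permutation test gave p = 0.1, the smallest that 3 libraries against 3 can give. The differences in log2 CPM within replicates 1, 2 and 3 were -1.85, -4.37 and -3.52.

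*Pf4* was the only member called under any alternative fit. With the replicate number as a block, its log2 fold change was -3.30 (SE 0.53), with an adjusted p of 0.63 in edgeR's quasi-likelihood test and 0.0015 in edgeR's likelihood ratio test. That second fit called 1 of the 8 members tested and, among all genes, 0.378% as lower in Vhigh. Over the other alternative fits to all 6 libraries, the adjusted p of *Pf4* ranged from 0.051 (quasi-likelihood test without the filter on low counts) to 0.99998.

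*Ppbp* (ENSMUSG00000029372.7, chromosome 5, 90768518 to 90770063) encodes pro-platelet basic protein, the precursor of several chemokines of the same granule, and lies just upstream of *Pf4* on the same strand. Its levels were 75.9, 96.9 and 4.12 CPM in Vmed and 0, 12.2 and 3.24 CPM in Vhigh. Vmed replicate 3 fell among the Vhigh libraries, so the fractions overlapped. The log2 fold change was -3.65 (SE 1.61, unadjusted p = 0.068 from edgeR's quasi-likelihood test; exact permutation test, two-sided, p = 0.2). The neighbours did not keep 1 ratio: for each count of *Pf4* there were 0.159, 0.254 and 0.0274 counts of *Ppbp* in Vmed and 0, 0.672 and 0.25 in Vhigh.

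The GPIb-IX-V complex is assembled from the products of *Gp1ba*, *Gp1bb*, *Gp9* and *Gp5*, and the last 3 were among the genes examined. *Gp9* (ENSMUSG00000030054.4, chromosome 6, 87778072 to 87779768), which encodes the small subunit that the complex needs to reach the cell surface, varied least of the 9 between libraries, by the SD relative to the mean in each fraction. It was read at 24.5, 42.4 and 29.9 CPM in Vmed and at 21.3, 16.3 and 13.8 CPM in Vhigh. Every Vhigh library was below every Vmed library, although Vmed replicate 1 and Vhigh replicate 1 differed by 0.20 on the log2 scale. The means were 32.3 ± 9.21 and 17.1 ± 3.82 CPM (SD, n = 3 each), with a log2 fold change of -0.92 (SE 1.04, 95% confidence interval -3.24 to 1.40, unadjusted p = 0.40 from edgeR's quasi-likelihood test; exact permutation test, two-sided, p = 0.1).

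*Gp1bb* (ENSMUSG00000050761.4, chromosome 16, 18620317 to 18622403), which encodes the beta chain of GPIb, had 58, 0 and 109 counts in Vmed and 0, 0 and 70 counts in Vhigh. These are 6.64, 0 and 11.2 CPM against 0, 0 and 5.82 CPM, and replicate 2 had none in either fraction. The log2 fold change was -1.63 (SE 2.71), within the spread between libraries. Its reads are uncertain, because 1938 of its 2087 exon bases are shared in GENCODE annotation with *Sept5* or *Gm49601*, which leaves 149 of its own. *Sept5* had 2, 0 and 62 counts in Vmed and 17, 0 and 35 in Vhigh, and how reads on shared bases were assigned is not given in the sources used here.

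*Gp5* (ENSMUSG00000047953.7, chromosome 16, 30307685 to 30310779) encodes the subunit of the complex that thrombin cleaves. It had 5, 1 and 124 counts in Vmed and 0, 2 and 24 counts in Vhigh, and was the member left out by the filter on low counts. Replicate 3 held most of its counts in both fractions, at 12.8 CPM in Vmed and 1.99 CPM in Vhigh, and the other libraries were between 0 and 0.572 CPM. Fitted without the filter, its log2 fold change was -2.63 (SE 3.14). Its partner *Gp1ba*, the chain that binds von Willebrand factor, was at 11.8, 53.4 and 10.4 CPM in Vmed and 0, 10.5 and 10.1 CPM in Vhigh (log2 fold change -1.94, SE 1.77).

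*Gp6* (ENSMUSG00000078810.4, chromosome 7, 4363965 to 4397744, minus strand) encodes GPVI, the collagen receptor of platelets. It had 9, 73 and 119 counts in Vmed, or 1.03, 8.80 and 12.2 CPM, and 0, 0 and 1 counts in Vhigh. No Vhigh library reached the smallest count taken to be shown, while every Vmed library did. Pooled over libraries, 201 counts in Vmed stood against 1 count in Vhigh, a ratio per count on genes of 252 with an exact 95% interval of 44.7 to 10007 for counting error only. The fitted log2 fold change, which with so few counts depends on the prior count, had an unadjusted p of 0.020 in edgeR's quasi-likelihood test (exact permutation test, two-sided, p = 0.1). *Fcer1g*, whose product is the signaling chain of GPVI and also of Fc receptors on myeloid and mast cells, was at 480, 125 and 102 CPM in Vmed and 166, 139 and 77.4 CPM in Vhigh (log2 fold change -0.93, SE 0.68).

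*Itgb3* (ENSMUSG00000020689.4, chromosome 11, 104608000 to 104670476) encodes the beta subunit of the fibrinogen receptor and of the vitronectin receptor of endothelium. Its levels were 24.4, 177 and 114 CPM in Vmed and 0.281, 186 and 154 CPM in Vhigh. Replicate 1 was the lowest of both fractions, with 213 counts in Vmed and 3 counts in Vhigh, while replicates 2 and 3 were alike in both. The log2 fold change was 0.03 (SE 1.34, 95% confidence interval -2.94 to 3.00), and its sign turned with the scaling (-0.02 with RLE size factors) and with the replicate block (-1.22, SE 1.13). A difference of several-fold in either direction is inside this interval. *Itga2b*, which encodes the alpha subunit CD41, a mark of the first blood progenitors as well as of megakaryocytes, was at 6.18, 57.0 and 88.2 CPM in Vmed and 5.35, 54.7 and 163 CPM in Vhigh (log2 fold change 0.53, SE 1.17), so replicate 1 was again the lowest in both fractions.

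*Treml1* (ENSMUSG00000023993.7, chromosome 17, 48359916 to 48367176) encodes TLT-1, a receptor held in the alpha granule membrane until platelets are activated. It was read at 42.4, 11.5 and 16.9 CPM in Vmed and at 0.0938, 8.84 and 4.49 CPM in Vhigh, where replicate 1 held 1 count. The fractions did not overlap, and the nearest libraries were those of replicate 2. The means were 23.6 ± 16.6 and 4.47 ± 4.37 CPM (SD, n = 3 each), with a log2 fold change of -2.55 (SE 1.61, unadjusted p = 0.16 from edgeR's quasi-likelihood test; exact permutation test, two-sided, p = 0.1).

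*Nfe2* (ENSMUSG00000058794.12, chromosome 15, 103248212 to 103258403, minus strand) was the member that was higher in Vhigh in every library. It was read at 28.3, 19.5 and 10.9 CPM in Vmed and at 41.3, 120 and 137 CPM in Vhigh. The means were 19.6 ± 8.67 and 99.3 ± 51.0 CPM (SD, n = 3 each), and the log2 fold change was 2.28 (SE 0.77, 95% confidence interval 0.56 to 3.99, adjusted p = 0.9998 and 0.018 before adjustment in edgeR's quasi-likelihood test). The exact two-sided permutation p was 0.1. Within replicates 1, 2 and 3, log2 CPM was higher in Vhigh by 0.54, 2.61 and 3.62, and the fit with the block gave a log2 fold change of 2.26 (SE 0.75, adjusted p = 0.99 in edgeR's quasi-likelihood test). The small Maf partners of its product did not separate the fractions: *Mafg* had a log2 fold change of -0.68 (SE 1.88) and *Mafk* of 1.17 (SE 1.96).

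**Figure D2:**
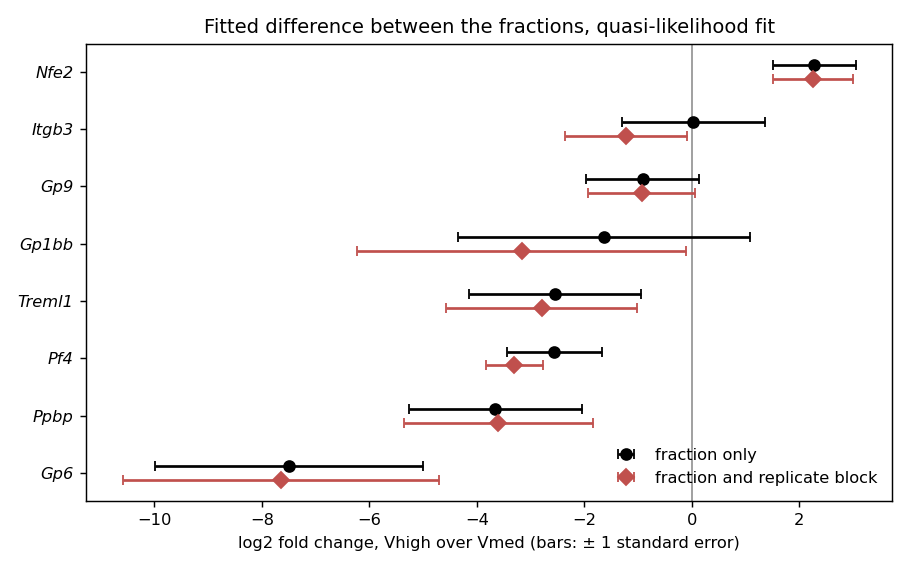
Log2 fold change of Vhigh over Vmed for the 8 genes that passed the filter, with the fraction as the only term (black circles) and with the replicate number as a block (red diamonds), and bars of 1 standard error. *Nfe2* lies at 2.28 and 2.26, *Pf4* at -2.56 and -3.30, and *Itgb3* at 0.03 and -1.22, the only gene on different sides of 0 in the fits.

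The make-up of the platelet transcripts differed between libraries as well as their sum. Summed over the 9 genes, expression was 681, 738 and 362 CPM in Vmed and 195, 361 and 334 CPM in Vhigh, so the lowest Vmed library lay just above the highest Vhigh library. *Pf4* made up 70.1, 51.7 and 41.5% of that sum in Vmed, 67.8% in Vhigh replicate 1, and 5.05 and 3.88% in Vhigh replicates 2 and 3. *Itgb3* took 51.4 and 46.3% of the sum in Vhigh replicates 2 and 3 and 0.144% in Vhigh replicate 1. For each count of *Pf4* there were 0.0592, 0.0512 and 0.0726 counts of *Nfe2* in Vmed and 0.312, 6.58 and 10.6 in Vhigh, a ratio within each library that does not depend on its total. Vhigh replicate 1, the library with the fewest genes detected, had no counts of 4 of the 9 genes (*Ppbp*, *Gp1bb*, *Gp5* and *Gp6*). Leaving libraries out cannot make separated genes overlap, so the separation of the same 4 genes and of *Nfe2* could not be lost this way. No other member became separated without that library, or without both libraries of replicate 1. Of all genes, 6.86 and 11.7%, and then 12.8 and 17.1%, were lower and higher without overlap.

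Levels were compared between genes per kilobase of exon (RPKM, from CPM and exon-union lengths). In Vmed, *Pf4* was the highest at 466 ± 233 RPKM (SD, n = 3), above the next gene in every library. *Ppbp* (54.4 ± 44.9), *Gp9* (36.6 ± 10.5), *Itgb3* (17.8 ± 13) and *Treml1* (16.8 ± 11.8) followed, then *Nfe2* (6.55 ± 2.90), *Gp1bb* (2.85 ± 2.70), *Gp5* (2.04 ± 3.26) and *Gp6* (1.25 ± 0.974 RPKM). Neighbours from *Ppbp* down overlapped in range. In Vhigh the order began with *Pf4* (75.7 ± 93.6), *Nfe2* (33.2 ± 17.1), *Gp9* (19.4 ± 4.34) and *Itgb3* (19.2 ± 16.8), and *Ppbp* (4.77 ± 5.86), *Treml1* (3.19 ± 3.12), *Gp1bb* (0.929 ± 1.61), *Gp5* (0.330 ± 0.502) and *Gp6* (0.0047 ± 0.0081 RPKM) came after. No neighbours in the Vhigh order differed beyond their spread. In Vhigh replicates 2 and 3, *Nfe2* at 40.1 and 45.8 RPKM stood above *Pf4* at 25.3 and 18.0 RPKM.

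A further 54 genes of megakaryocytes and platelets, written down by role, lay on both sides of 0. Of the 52 that passed the filter, 22 were fitted lower and 30 higher in Vhigh, 0 were called by edgeR's quasi-likelihood test, and the median log2 fold change was 0.06, beside -0.02 over all genes. At an unadjusted p under 0.05, 5 were lower (*Tubb1*, *Thbs1*, *P2ry12*, *F2rl2* and *Clec1b*), or 9.62%, beside 1.17% of all genes, and 3 higher (*Plcg2*, *Gfi1b* and *Runx1*), or 5.77%, beside 0.867%. Libraries of the fractions did not overlap for 10 lower genes, or 19.2%, beside 4.71% of all genes, and for 4 higher genes, or 7.69%, beside 4.15%. These 8 genes, *Selp*, *Tal1*, *Bach1*, *Hdc*, the called genes of other cells and the partners of the members were picked after their values were seen.

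Among these genes, *Tubb1*, *P2ry12* and *Thbs1* were called under at least 1 alternative fit. *Tubb1*, the beta-tubulin of the platelet marginal band, was read at 72.2, 125 and 28.9 CPM in Vmed and at 0, 0.276 and 0.249 CPM in Vhigh, at or under 3 counts in each Vhigh library. It was not called in the quasi-likelihood test (unadjusted p = 0.00018, adjusted p = 0.66) but was called by edgeR's likelihood ratio test (adjusted p = 0.00029) and by DESeq2 (adjusted p = 1.53e-10). For each count of *Nfe2* there were 2.55, 6.38 and 2.65 counts of *Tubb1* in Vmed and 0, 0.0023 and 0.0018 in Vhigh. *P2ry12*, the ADP receptor of platelets, which microglia and their precursors also express, was at 48.3, 17.1 and 13.9 CPM in Vmed and 0, 0.368 and 0 CPM in Vhigh. Its adjusted p was 0.9998 in edgeR's quasi-likelihood test, 0.085 in its likelihood ratio test and 0.0012 from DESeq2. *Thbs1*, the alpha granule protein thrombospondin, which stromal cells also make, was at 85.8, 244 and 197 CPM in Vmed and 3.47, 29.1 and 18.2 CPM in Vhigh (log2 fold change -3.47, SE 0.76). Its adjusted p was 0.9998 in edgeR's quasi-likelihood test, 0.069 in its likelihood ratio test and 0.0056 from DESeq2. Over all genes, DESeq2 called 31 of 12688 as lower.

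By role, the partners of the platelet receptors had 4 of 7 tested genes fitted lower and 3 higher in Vhigh, the most abundant being *Itgb1* (log2 fold change 0.05, SE 0.58), the beta subunit of the collagen-binding integrin, and the tetraspanin gene *Cd9* (-0.32, SE 0.48). *Selp*, the gene of P-selectin, was not tested and had no counts in Vmed, with 0, 33.7 and 15.5 CPM in Vhigh. The agonist and cytokine receptors had 4 of 8 lower and 4 higher, among them the thrombin receptor gene *F2r* (-0.38, SE 0.49). Platelet signaling genes had 2 of 11 lower and 9 higher, with a median of 0.29, and their most abundant members were *Plek* (0.07, SE 0.44), a substrate of protein kinase C, and the integrin activator gene *Tln1* (0.06, SE 0.90).

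Granule contents and biogenesis genes had 5 of 11 tested genes fitted lower and 6 higher (median 0.05), and *Mmrn1* was listed at 0 in all 6 libraries. *Srgn*, the granule proteoglycan gene of many blood cells, was at 165, 51.5 and 26.9 CPM in Vmed and 361, 177 and 92.5 CPM in Vhigh (1.36, SE 0.78), higher in 3 of 3 pairs, and *Clu* had a log2 fold change of 1.18 (SE 0.79). The cytoskeletal genes had 4 of 5 lower and 1 higher, with *Flna* at -0.67 (SE 0.53) and the myosin gene *Myh9* at 0.22 (SE 0.59). The transcription factors had 3 of 10 lower and 7 higher (median 0.70), with *Fli1* at 0.35 (SE 0.51) and *Meis1* at -0.19 (SE 0.60). *Runx1*, like *Nfe2*, was separated upward, at 4.58, 30.5 and 31.2 CPM in Vmed and 41.9, 114 and 141 CPM in Vhigh (2.12, SE 0.87), as were *Gfi1b* (2.12, SE 0.91) and *Tal1* (1.19, SE 0.74). Those separated upward were 30% of the list, beside 4.15% of all genes. *Bach1* was separated downward, or 10% of the list, beside 4.71% of all genes. It was at 61.3, 57.6 and 45.2 CPM in Vmed and 36.1, 21.5 and 23.4 CPM in Vhigh (-1.02, SE 0.83). None of the differences in these lists was called in the quasi-likelihood test.

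**Figure D3:**
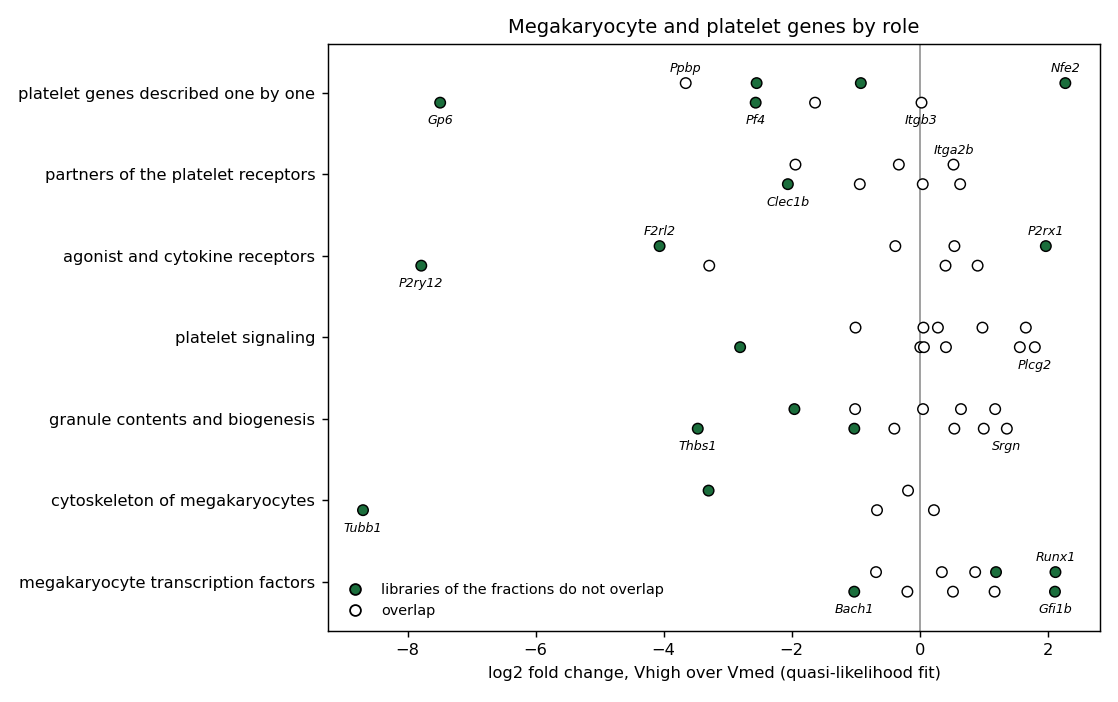
Log2 fold change of Vhigh over Vmed (horizontal axis, quasi-likelihood fit) of the 8 platelet genes and of the 52 other genes tested, by role, with filled points where the libraries of the fractions do not overlap. The set of 8 holds 6 points below 0 and the other roles hold 22 below and 30 above, with *Tubb1*, *P2ry12* and *Gp6* farthest to the left. Positions near -8 are fitted from 6 or fewer counts in Vhigh and depend on the prior count.

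Markers of other cells were also read at lower levels in Vhigh. All 12 genes of a macrophage and monocyte list were fitted lower in Vhigh, and 0 were called by edgeR's quasi-likelihood test. Of the 12, 7 were lower without overlap, or 58.3%, beside 4.71% of all genes tested. At an unadjusted p under 0.05 in that test, 6 were lower, or 50%, beside 1.17% of all genes. Other fits called some of them as lower: 5 with DESeq2 (*Cx3cr1*, *Emr1*, *Mrc1*, *C1qa* and *C1qc*), 6 with the replicate block and the likelihood ratio test, 2 without the filter and 1 with the likelihood ratio test (*Emr1*). Over all genes, these fits called 31, 48, 24 and 10 as lower, of 12688 tested or, without the filter, 20033. The summed level of the list was 2223, 1183 and 1118 CPM in Vmed and 689, 150 and 157 CPM in Vhigh. Vhigh replicate 1 was the highest of its fraction in this sum and in *Pf4*. Within the list, *Cx3cr1*, *Mrc1*, *C1qa*, *C1qc* and *Emr1* were not highest in that Vhigh library, and the other genes were. *C1qb*, a complement gene of macrophages, was at 686, 247 and 240 CPM in Vmed and 92.9, 3.59 and 1.91 CPM in Vhigh, and *Lyz2* at 227, 85.1 and 82.9 CPM in Vmed and 214, 49.2 and 59.4 CPM in Vhigh. The defining marker *Emr1*, which encodes F4/80, was at 60.1, 34.6 and 29.6 CPM in Vmed and at 0, 0 and 0.249 CPM in Vhigh, and *C1qa* was at 0 in Vhigh replicate 1. The part of these cells in the lower levels of *Pf4* and the other genes was not tested.

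All 9 genes of a mesenchyme and mural list were also fitted lower in Vhigh. Without overlap were 6, or 66.7%, beside 4.71% of all genes. Of the 9, 0 were called by edgeR's quasi-likelihood test, 3 by its likelihood ratio test (*Col1a1*, *Col1a2* and *Lum*) and 4 by DESeq2 (the same 3 and *Col3a1*). The fit without the filter called 5, and the replicate block with the likelihood ratio test 6. Over all genes, the fits after the quasi-likelihood test called 10, 31, 24 and 48 as lower, in this order. The list had sums of 2096, 3881 and 4658 CPM in Vmed and 695, 576 and 275 CPM in Vhigh. Their most abundant members were *Col3a1* (-2.53, SE 0.59) and *Lum* (-4.20, SE 0.67). Of a list of 10 endothelial genes, 9 were fitted lower and 0 called in these fits. Without overlap was 1, *Emcn* (-1.34, SE 0.50), or 10%, beside 4.71% of all genes. The endothelial sums, 1352 to 5607 CPM in Vmed and 1037 to 3776 CPM in Vhigh, overlapped. *Kdr* was at -0.74 (SE 0.83). The part of these cells was likewise not tested.

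For *Nfe2*, the lists of the other blood cells gave these values. The erythroid list summed to 602, 369 and 188 CPM in Vmed and 233, 101 and 161 CPM in Vhigh, with the embryonic globin genes *Hbb-y* (-1.63, SE 0.76) and *Hbb-bh1* (-0.96, SE 0.67) the most abundant, and 6 of its 14 genes, the adult globin genes, listed at 0 in all libraries. Adult globin genes have near-identical copies, and reads that fit several places were not counted, so these zeros are uncertain. The mast cell and basophil list summed to 111, 66.8 and 96.0 CPM in Vmed and 177, 143 and 181 CPM in Vhigh, a sum that includes *Gata2*, the gene whose reporter defines the fractions. Its other genes went different ways. *Cpa3* was at 11.1, 3.62 and 0 CPM in Vmed and 137, 23.8 and 11.1 CPM in Vhigh. *Hdc* was at 47.9, 33.7 and 27.7 CPM in Vmed and 0.469, 27.8 and 28.3 CPM in Vhigh (-1.05, SE 1.31), and the remaining 4 genes were at 6.26 CPM or less in every library. Of 8 sorting and blood progenitor genes, 7 were fitted higher in Vhigh, and *Gata2* was again among these and in the sum. Higher without overlap were 4 of the 8, or 50%, beside 4.15% of all genes. Of the 8, edgeR's quasi-likelihood test called 0 and DESeq2 called 2 (*Cd44* and *Myb*), where DESeq2 called 20 of 12688 genes as higher. *Cd34* was at 0.77 (SE 0.54), and the list summed to 637, 1541 and 1474 CPM in Vmed and 1280, 2471 and 3104 CPM in Vhigh. The part of these cells in the level of *Nfe2* was not tested.

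**Figure D4:**
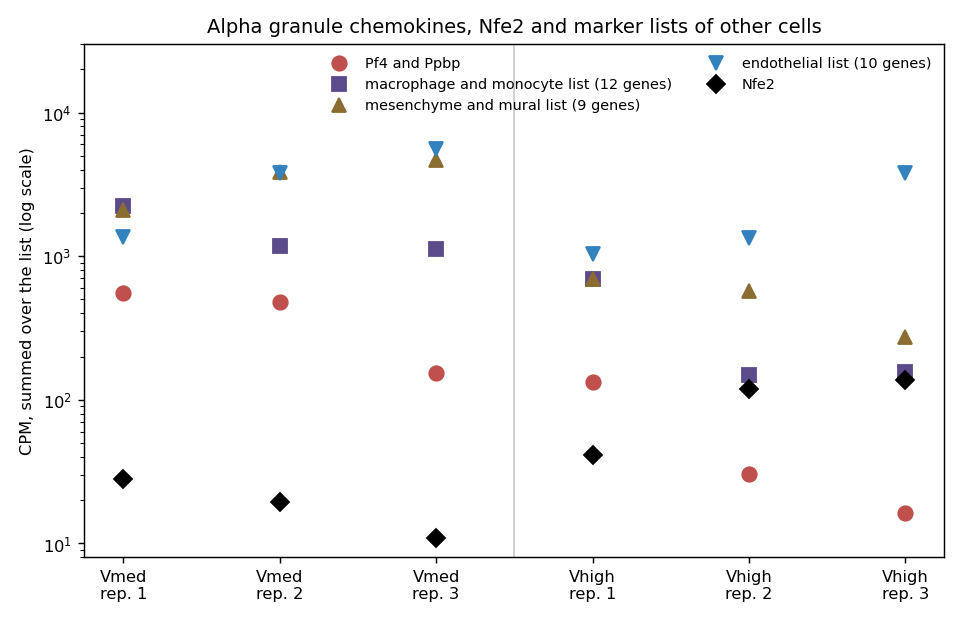
CPM summed over gene lists (vertical axis, log scale) in each of the 6 libraries, with *Pf4* and *Ppbp* as red circles, *Nfe2* as black diamonds, and lists of 12 macrophage and monocyte, 9 mesenchyme and mural and 10 endothelial genes. The macrophage list lies at 1118 to 2223 CPM in Vmed and at 150 to 689 CPM in Vhigh, and the red circles are likewise lower in Vhigh, while the endothelial list overlaps between the fractions.

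The 10 genes whose log2 CPM followed the mean log2 CPM of the 9 genes most closely were *Tead4*, *Fbxl7*, *Zeb2os*, *Cyp26a1*, *Cd248*, *Spag1*, *Colec12*, *2010111I01Rik*, *Piezo2* and *Klhdc8b*, with Pearson's r between 0.987 and 0.994 over the 6 libraries. The points share their libraries and the depth of each, and the mean was lowest in Vhigh replicate 1, where each of these 10 genes was also lowest. *Tead4*, for example, was at 5.49, 4.46 and 11.0 CPM in Vmed and 0, 1.20 and 2.16 CPM in Vhigh, and *Piezo2* at 53.3, 63.3 and 77.7 CPM in Vmed and 3.19, 24.6 and 35.5 CPM in Vhigh. With 6 points chosen from 12688 genes, such values describe these libraries.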

How the data were processed

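RNA of sorted cells was isolated with the mirVana kit and amplified by the SMARTer protocol, and single reads of 50 bases were sequenced. Per the submitters' processing notes and the study's methods, the authors aligned them to GRCm38/mm10 with TopHat and Bowtie 1.1.2 and deposited raw HTSeq counts per gene, without normalization. The annotation, the counting mode and the use of strand are not given in the sources used here. Of all entries in the tables, 41.3 to 57.7% were alignments set aside as not unique, so near-identical genes may be undercounted.

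Libraries were grouped by their labels. CPM used each library's total on genes, and log2 CPM a prior count of 2. The fractions were compared with edgeR 4.0.16 (R 4.3.3; limma 3.58.1): filterByExpr, TMM factors and the quasi-likelihood test with fraction as the only term, adjusted by Benjamini and Hochberg's method over 12688 genes. Standard errors came from the information matrix and the quasi-likelihood dispersion. Single genes were also compared over all 20 arrangements of the libraries. Alternatives were other scalings and filters, edgeR's likelihood ratio test, DESeq2 1.42.0, limma-voom, the replicate block, and libraries left out. The biological coefficient of variation was 1.16, and depth was 8296831 to 12035206 counts. The confidence intervals of the log2 fold changes came from these standard errors and cover the spread between libraries. The interval of the pooled *Gp6* ratio and the floors cover counting error only, and reads carry no molecular identifiers.

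Replicate numbers in the labels were checked as pairs. Deviations from the fraction means correlated across genes by r = 0.21, 0.21 and 0.39 for replicates 1, 2 and 3, and by -0.29 to -0.01 for other pairs, so the numbers were taken as pairs. Deviations cancel within each fraction, which by itself pushes the other pairs below the same-numbered ones where these are positive. The main fit and the permutation test do not use the pairing, and the fits with the replicate block do.

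Exon lengths were exon unions in GENCODE vM21, matched to 22750 of 24062 symbols directly and to 917 by an older symbol. The members, gene lists and alternatives were chosen with earlier results of these data known. Named genes were the 9 members, the 2 most abundant genes of each list and any called, *Kit*, *Pecam1* and *Gata2*, genes overlapping a member, and the 10 genes most like the members' mean. 1 gene that this rule names is not reported here.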

Additional observations from a re-analysis of the deposited data

How the results depend on the processing

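Of 133 values of single members under other fits, 124 kept their direction and their side of the threshold, 8 turned direction and 1 passed the threshold. The 8 were all of *Itgb3*, whose log2 fold change of 0.03 became -0.023 with RLE size factors, -0.024 with DESeq2, -1.47 with limma-voom, -1.22 and -1.27 with the replicate block (quasi-likelihood and likelihood ratio tests), -0.43 without Vmed replicate 1, -0.46 without Vhigh replicate 2 and -0.28 without Vhigh replicate 3. Its range with 1 library left out was -0.46 to 0.62. The 1 was *Pf4* with the replicate block in the likelihood ratio test, and the block changed no other call of a member. The cause was not tested.

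The number of genes called was 0 in the quasi-likelihood test, and it was 37 without the filter, 21 with the likelihood ratio test, 51 with DESeq2 (212 adjusted p-values were not given) and 74 with the replicate block and the likelihood ratio test. It was 0 to 1 with 1 library left out, the 1 being *Dcn* without Vhigh replicate 1 (adjusted p = 0.037). At an unadjusted p under 0.05 the quasi-likelihood test gave 259 genes. Of the 8 members tested, 1 was called with the replicate block and the likelihood ratio test. Of the other megakaryocyte and platelet genes, 2 were called without the filter, 1 with the likelihood ratio test, 3 with DESeq2 and 3 with the replicate block and the likelihood ratio test, and these were *Tubb1*, *Thbs1* and *P2ry12*.

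Without Vhigh replicate 1, the log2 fold change of *Pf4* was -4.55, at the low end of -4.55 to -2.05 over single libraries left out. That of *Gp1bb* was -8.89 without Vhigh replicate 3, its only Vhigh library with counts. *Nfe2* ranged from 1.94 to 2.68. With 3 libraries per fraction and a floor of 0.249 to 0.362 CPM, levels of *Gp6*, *Gp5* and *Gp1bb* in Vhigh were mostly not detectable at this depth.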
